A study of Mus musculus with 4 samples.

Results

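The interferon-stimulated genes examined here were 45 genes listed by name for their known role, 41 that interferons induce or that carry their signal and the 4 chains of the interferon receptors, of the 27179 genes with a value. The list was drawn up with earlier results of these data known. All 45 symbols were found among the NCBI gene numbers of the table. RNA-sequencing was done on 4 libraries of leukemia-initiating cells (LICs, called LSC in the labels), 2 WT and 2 CD274-null (CD274-/-), from the bone marrow of C57BL/6 mice given as 6 weeks old. Both groups share the MLL-AF9 model of acute myeloid leukemia (AML): fetal liver progenitors took up a retrovirus encoding this fusion oncogene and were grown in irradiated C57BL/6 mice, whose own remaining cells carry an intact Cd274. The study takes Mac-1+/c-Kit+ cells as LICs. It describes their sorting for quantitative RT-PCR, while its RNA-sequencing methods name tissue as the source of RNA. Neither the sex of the mice nor the transplantation round of these cells is stated in the sources, nor whether each library is 1 animal, so the p-values below measure the spread between these libraries only. The values are FPKM, the fragments of a gene divided by its length and by the mapped reads of the library.

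Interferons are cytokines released on viral infection and inflammation. Type I interferons act through the IFNAR1 and IFNAR2 chains and interferon gamma through IFNGR1 and IFNGR2. Both receptors switch on JAK kinases and STAT factors. Complexes that hold STAT2 and IRF9 bind the interferon-stimulated response element (ISRE) in the promoters of antiviral genes, and the gamma-activated site (GAS) is the element of the interferon gamma response. CD274 itself is known as a gene that interferon gamma induces through IRF1, and myeloid cells keep some interferon-stimulated genes on without infection.

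The ISRE was searched as 2 copies of GAAA with any 2 bases between them, which read TTTC on the other strand, and the GAS as TTCNNNGAA, which reads the same on both strands, in windows from 250 bases before to 50 bases after each RefSeq gene start of GRCm38.p6. Matches may overlap one another. Of 35 members with a window, 17 (48.6%) held an ISRE, against 3.99% of the 27025 genes with a window. The windows of Dhx58, Mx1, Mx2, Oas2, Parp9, Parp14, Zbp1, Rtp4, Usp18 and Ifi27l2a were not analysed here. A GAS was found in 12 members (34.3%), against 9.55% of all genes. Some of the windows with an ISRE, chosen with their values known, are shown up to the gene start because they stand for the range of the responses below: Isg15, Ifit3 and Oas3 had their highest level in a single CD274-null library, Stat2 was high in both CD274-null libraries, and Gbp7 was low in both. Capitals mark the ISRE matches. The sequence of Isg15 is chr4:156200819-156201068 on the minus strand, that of Ifit3 chr19:34583279-34583528 on the plus strand, that of Oas3 chr5:120777660-120777909 on the minus strand, that of Stat2 chr10:128270248-128270497 on the plus strand and that of Gbp7 chr3:142530086-142530335 on the plus strand.
Isg15: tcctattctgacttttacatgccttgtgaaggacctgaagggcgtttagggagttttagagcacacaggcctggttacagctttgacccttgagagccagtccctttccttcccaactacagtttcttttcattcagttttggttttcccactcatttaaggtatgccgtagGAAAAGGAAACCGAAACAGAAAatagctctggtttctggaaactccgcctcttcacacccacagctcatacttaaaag
Ifit3: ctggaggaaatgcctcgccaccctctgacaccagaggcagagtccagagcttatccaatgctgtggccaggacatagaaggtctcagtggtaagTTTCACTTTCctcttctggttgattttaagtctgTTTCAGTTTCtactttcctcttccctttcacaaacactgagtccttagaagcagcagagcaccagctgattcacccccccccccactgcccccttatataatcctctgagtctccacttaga
Oas3: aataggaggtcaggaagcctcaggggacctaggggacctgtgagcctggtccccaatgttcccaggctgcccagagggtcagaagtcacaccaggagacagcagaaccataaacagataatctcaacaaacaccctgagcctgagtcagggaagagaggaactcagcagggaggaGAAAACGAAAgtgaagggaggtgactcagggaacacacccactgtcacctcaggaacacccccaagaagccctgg
Stat2: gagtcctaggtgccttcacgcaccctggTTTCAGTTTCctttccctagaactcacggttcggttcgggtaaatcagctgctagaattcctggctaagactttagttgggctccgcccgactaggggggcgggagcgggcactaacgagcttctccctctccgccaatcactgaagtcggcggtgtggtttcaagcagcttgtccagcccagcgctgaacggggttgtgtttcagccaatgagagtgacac
Gbp7: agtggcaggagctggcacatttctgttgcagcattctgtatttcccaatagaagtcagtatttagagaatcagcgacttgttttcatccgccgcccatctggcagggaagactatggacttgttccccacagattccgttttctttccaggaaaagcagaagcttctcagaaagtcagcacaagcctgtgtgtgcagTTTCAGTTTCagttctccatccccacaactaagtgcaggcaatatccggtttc

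The Isg15 sequence held 3 overlapping ISRE matches, beginning 78, 72 and 66 bases before the gene start, and the Ifit3 sequence held 2, beginning 156 and 122 bases before it. A single match began 75 bases before the start in Oas3, 222 in Stat2 and 53 in Gbp7. The match was thus present in genes with opposite differences between the groups. Among members tested below that had a window, the median log2 fold change was 0.11 for the 14 with an ISRE and 0.39 for the 17 without one. The receptor chains are all among the latter. Members with no window, among them Mx1 (2.01), Mx2 (1.84) and Dhx58 (0.15), are left out of both medians. Whether members with an ISRE differed less was therefore not tested.

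As a check of the labels, the deleted gene was read in every library. Cd274 (NCBI gene 60533, chr19:29362107-29388095) had an FPKM of 2.80 and 0.945 in WT replicates 1 and 2 and of 1.43 and 2.29 in CD274-null replicates 1 and 2, so its level did not tell the groups apart. A value per gene does not show whether the deleted exons were read. Every direction below therefore rests on the labels. The 8 markers of the leukemic cells summed to an FPKM of 1095 and 1102 in WT against 1988 and 1549 in CD274-null, with 3 of them higher and 2 lower in both CD274-null libraries (37.5% and 25%, against 25.6% and 21.8% of all genes tested below). Most of this lay in Mpo, a granule enzyme of myeloid progenitors and a candidate by the thresholds below, at 444 and 403 in WT against 1427 and 925 in CD274-null, while Itgam, which encodes Mac-1, ran from 100.2 to 174 and Kit from 6.59 to 19.5 over the 4 libraries with the groups overlapping. Whole reads could be recovered from the steps of the FPKM values, with totals of 8692378 to 11380818 reads on genes per library. The mapped totals recovered with them, 8843737 to 11568565, are below what the read number and mapping rate in the study's methods would give. The reason was not tested. Sex-linked genes differed within and between the groups. Xist, the RNA that silences an X chromosome in female cells, had an FPKM of 2.57 and 51.1 in WT and of 107 and 68.7 in CD274-null. The Y-linked Ddx3y had 27.1 and 18.1 in WT against 0.0244 and 6.28 in CD274-null, and Eif2s3y, Kdm5d and Uty were also lower in both CD274-null libraries, Uty as a candidate (limma unadjusted p = 0.00669, adjusted p = 0.272). The sex of the cells therefore ran partly with the genotype labels, and its part in the results was not tested.

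Differences were tested with limma on log2(FPKM + 0.5) over the 13230 genes whose FPKM averaged 0.5 or more, and fold changes below are on this scale, which understates changes of low genes. A candidate was a gene with a fold change above 1.5 at an unadjusted p under 0.01, as set in the study. Of the 45 members, 44 were above 0 in some library, 40 were tested and 5 were too low, Ifit1, Ifit3, Rsad2, Rtp4 and Ifi44. Of those tested, 6 had a WT mean under 0.5 and passed only through the CD274-null libraries, Usp18, Mx2, Oas3, Oasl1, Oasl2 and Gbp2. Counts over the members tested are therefore descriptions.

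None of the 40 members was a candidate in limma, where 3.63% of all genes tested were, and none had an adjusted p under 0.05. At an unadjusted p under 0.05, 7 members lay higher in the CD274-null libraries, Stat2, Irf1, Irf7, Irf9, Usp18, Mx1 and Mx2, which is 17.5% of those tested against 8.04% of all genes. This count was 2 with quantile normalisation, where Irf1 and Mx1 were left, and 3 with equal medians, where Mx2 was also left. Without moderation of the variance none of these 7 was under 0.05, and 2 other members were. Gbp7 alone was lower, 2.5% of those tested against 5.70% of all genes. With voom, limma's method for counts, on the recovered reads, 1 member was a candidate, Gbp7, which was also one when the libraries were brought to equal quantiles or equal medians and when the trend was left out of limma. The levels of both CD274-null libraries lay above both WT libraries in 17 members (42.5%, against 25.6% of all genes tested) and below them in 4 (10%, against 21.8%), namely Ifih1, Eif2ak2, Ifit2 and Gbp7. The median log2 fold change of the members tested was 0.43, against 0.01 over all genes tested. In bulk samples such as these, fewer cells of a type and less RNA per cell cannot be told apart.

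**Figure D1:**
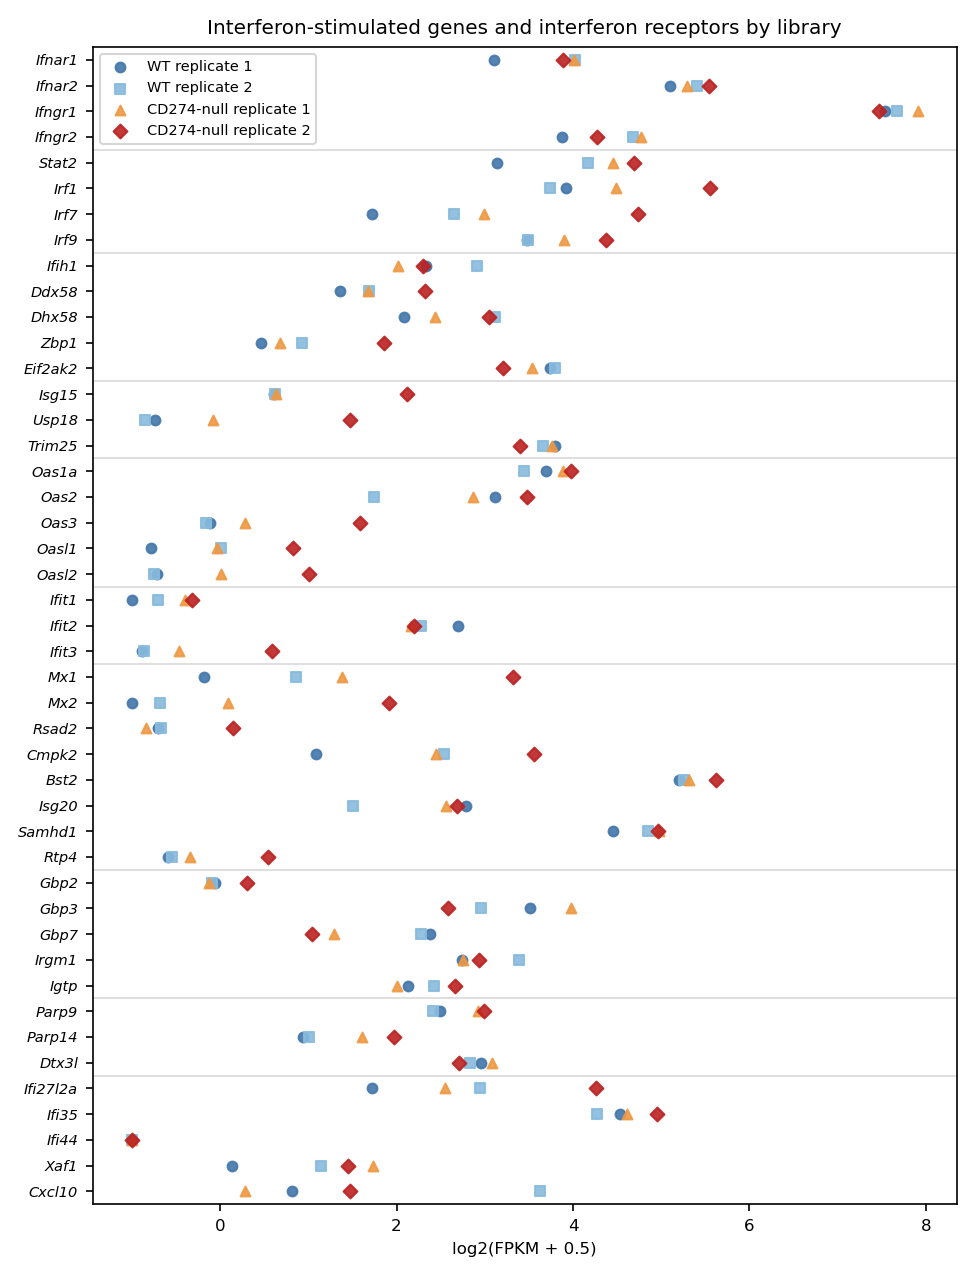
Level of each of the 45 genes in the 4 libraries as log2(FPKM + 0.5), grouped by role between the grey lines. CD274-null replicate 2 (red diamonds) lies to the right of the other libraries for Irf1, Irf7, Isg15, Usp18, Mx1 and Mx2, while the receptors at the top are mixed.

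CD274-null replicate 2 was the highest of the 4 libraries in 24 of the 40 members tested (60%), against 21.0% of all genes tested. CD274-null replicate 1 was the highest in 6, WT replicate 2 in 6 and WT replicate 1 in 4. Relative to the WT mean, the members tested had a median log2 difference of 0.32 in CD274-null replicate 1 and of 0.53 in CD274-null replicate 2, while over all genes tested these medians were 0.08 and -0.06. Without the receptors, the 36 other members tested had medians of 0.32 and 0.68.

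The transcription factors of the pathway were higher in both CD274-null libraries, all 4 of them at an unadjusted p under 0.05, which 8.04% of all genes tested reached in this direction. With quantile normalisation only Irf1 reached it in limma, and without CD274-null replicate 2 none of the 4 did. Irf7 (NCBI gene 54123, chr7:141263183-141266499), the factor that drives type I interferon genes and is itself induced by interferon, had an FPKM of 2.79 and 5.76 in WT replicates 1 and 2 and of 7.48 and 26.2 in CD274-null replicates 1 and 2, from 60, 109, 123 and 485 reads. Only CD274-null replicate 2 stood far from the rest, although the groups did not overlap. Its log2 fold change was 1.69 (limma unadjusted p = 0.0324, adjusted p = 0.334, standard error 0.62). Irf1 (NCBI gene 16362, chr11:53770014-53778374), a factor that interferon gamma induces early, had 14.7 and 12.9 in WT against 21.98 and 46.5 in CD274-null. This is a mean FPKM of 13.8 ± 1.27 (SD, n = 2) against 34.2 ± 17.3 (SD, n = 2), and the log2 fold change was 1.19 (limma unadjusted p = 0.0176, adjusted p = 0.299, standard error 0.37).

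Stat2 (NCBI gene 20847, chr10:128270498-128292853), the STAT factor particular to the type I and type III response, had an FPKM of 8.28 and 17.5 in WT and of 21.4 and 25.3 in CD274-null. Here the WT libraries differed more from each other than the CD274-null libraries did, and the log2 fold change was 0.92 (limma unadjusted p = 0.0472, adjusted p = 0.357, standard error 0.37). Irf9 (NCBI gene 16391, chr14:55603985-55610030), the DNA-binding partner of STAT2, had 10.6 and 10.7 in WT against 14.4 and 20.2 in CD274-null. Its WT libraries were close to equal and its log2 fold change was 0.66 (limma unadjusted p = 0.0459, adjusted p = 0.355, standard error 0.26).

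The receptor chains did not separate the groups. Ifngr1 (NCBI gene 15979, chr10:19591949-19610229), the ligand-binding chain for interferon gamma, was by far the most abundant member per length, with an FPKM of 185 and 203 in WT and of 239.6 and 177 in CD274-null. Ifngr2 (NCBI gene 15980, chr16:91547059-91564007), its signalling partner, had 14.2 and 25.2 in WT against 26.8 and 18.8 in CD274-null. For the type I receptor, Ifnar2 (NCBI gene 15976, chr16:91372783-91405589) had 33.7 and 41.8 in WT against 38.7 and 46.1 in CD274-null. Ifnar1 (NCBI gene 15975, chr16:91485032-91510523) had 8.10 and 15.7 in WT against 15.6 and 14.3 in CD274-null, with WT replicate 1 standing below the other 3. In each of the 4 chains the groups overlapped. The log2 fold changes were 0.09 for Ifngr1, 0.24 for Ifngr2, 0.17 for Ifnar2 and 0.39 for Ifnar1, with standard errors of 0.24, 0.34, 0.23 and 0.35 and an adjusted p of at least 0.645 in limma. The 3 chains Ifnar2, Ifnar1 and Ifngr2 lie within 1 stretch of chromosome 16.

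Mx1 and Mx2 had the largest fold changes among the members tested on the log2(FPKM + 0.5) scale, an order that depends on the pseudocount, since with one of 0.1 Usp18 (2.70) exceeded Mx1 (2.47). Both encode dynamin-like GTPases that block viruses, and C57BL/6 mice carry defective alleles of both. Mx1 (NCBI gene 17857, chr16:97447035-97462906) had an FPKM of 0.385 and 1.31 in WT and of 2.10 and 9.50 in CD274-null, from 12, 36, 50 and 255 reads. CD274-null replicate 2 was above all others, and CD274-null replicate 1 was nearer to WT replicate 2 than to its own replicate. By counting error alone, the exact 95% Poisson interval was 8.37 to 10.7 in CD274-null replicate 2 and 1.56 to 2.76 in CD274-null replicate 1. The log2 fold change was 2.01 (limma unadjusted p = 0.0288, adjusted p = 0.330, standard error 0.71). Mx2 (NCBI gene 17858, chr16:97536081-97560901) had 0 and 3 reads in WT and 12 and 79 in CD274-null, an FPKM of 0, 0.122, 0.560 and 3.28. In WT replicate 1 the 0 allows an FPKM of up to 0.107, which is 3 reads. Its fitted log2 fold change of 1.84 (limma unadjusted p = 0.0324, adjusted p = 0.334) depends on the pseudocount.

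Of the ISG15 pathway, Usp18 (NCBI gene 24110, chr6:121245906-121270917), the protease that removes ISG15 from proteins and damps the type I receptor, had 2 and 1 reads in WT and 7 and 40 in CD274-null, an FPKM of 0.0976, 0.0555, 0.447 and 2.27. Most of its reads came from CD274-null replicate 2, and the fitted log2 fold change was 1.49 (limma unadjusted p = 0.0496, adjusted p = 0.363). Isg15 (NCBI gene 100038882, chr4:156199424-156200818), the ubiquitin-like modifier, had 1.03 and 1.04 in WT against 1.05 and 3.85 in CD274-null, from 9, 8, 7 and 29 reads. The other libraries were alike and only CD274-null replicate 2 stood apart, although CD274-null replicate 1 was marginally above both WT libraries. Trim25 (NCBI gene 217069, chr11:88999403-89020294), a ubiquitin and ISG15 ligase that activates RIG-I, had 13.4 and 12.1 in WT against 13.0 and 10.1 in CD274-null, a log2 fold change of -0.15 (limma adjusted p = 0.834).

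The oligoadenylate synthetases, which activate the RNA-degrading enzyme RNase L, were all highest in CD274-null replicate 2. This was so for 60% of all members tested and 21.0% of all genes tested. None of the 5 of this family had an unadjusted p under 0.05 in limma. Oas1a (NCBI gene 246730, chr5:120896256-120907544), the most abundant, had an FPKM of 12.4 and 10.3 in WT and of 14.2 and 15.3 in CD274-null, so its groups were apart by little (log2 fold change 0.36 with a standard error of 0.24, limma adjusted p = 0.535). Oas3 had 0.421 and 0.396 in WT against 0.719 and 2.49 in CD274-null. Oasl2, an OAS-like protein, had 0.110 and 0.0940 in WT against 0.505 and 1.51 in CD274-null. In Oas2 and Oasl1 the groups overlapped, with Oas2 at 8.17 and 2.85 in WT against 6.82 and 10.7 in CD274-null. Oas1a lies in a cluster of near-identical Oas1 copies, so its reads may have been split among them by the authors' counting.

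Of the IFIT proteins, which bind foreign RNA, Ifit2 (NCBI gene 15958, chr19:34550550-34576534) was the one tested and did not share this order, with an FPKM of 6.00 and 4.35 in WT and of 3.98 and 4.09 in CD274-null (log2 fold change -0.31, limma adjusted p = 0.685). Its neighbour Ifit3 had 1 read in each WT library and 4 and 20 in CD274-null. Ifit1, next to both, had 0 and 3 reads in WT and 6 and 8 in CD274-null. Neither reached the minimum level for the test.

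Other antiviral effectors ranged from abundant to almost absent. Bst2 (NCBI gene 69550, chr8:71534255-71537472), tetherin, which holds budding virus at the cell surface, had an FPKM of 36.4 and 37.7 in WT and of 39.3 and 48.6 in CD274-null (log2 fold change 0.23 with a standard error of 0.21, limma adjusted p = 0.651). Samhd1, which depletes the nucleotides that viruses copy from, had 21.4 and 28.3 in WT against 31.0 and 30.8 in CD274-null. Cmpk2, a mitochondrial nucleotide kinase, had 1.63 and 5.30 in WT against 4.96 and 11.3 in CD274-null. Its neighbour on chromosome 12, Rsad2, which encodes viperin, had 5 and 5 reads in WT and 2 and 23 in CD274-null. Isg20, an exonuclease, overlapped between the groups, and Rtp4 had at most 15 reads in a library, in CD274-null replicate 2.

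None of the 5 RNA sensors had an unadjusted p under 0.05 in limma, and their log2 fold changes had both signs. Eif2ak2 (NCBI gene 19106, chr17:78850504-78882572), the kinase PKR that stops translation on double-stranded RNA, was the most abundant, with an FPKM of 12.9 and 13.4 in WT and of 11.1 and 8.75 in CD274-null (log2 fold change -0.40 with a standard error of 0.25, limma adjusted p = 0.524). Ifih1, the long RNA sensor MDA5, had 4.54 and 7.01 in WT against 3.54 and 4.44 in CD274-null. In both of these, each CD274-null library was under each WT library. Ddx58, the sensor RIG-I, had 2.06 and 2.72 in WT against 2.70 and 4.49 in CD274-null. Zbp1, a sensor of left-handed nucleic acid, had 0.880 and 1.41 in WT against 1.10 and 3.11 in CD274-null. Dhx58 overlapped as well.

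Of the guanylate-binding proteins and immunity-related GTPases, which interferon gamma induces and which attack vacuoles of intracellular microbes, Gbp7 (NCBI gene 229900, chr3:142530336-142550151) had the lowest p of any member. Its FPKM was 4.70 and 4.33 in WT against 1.96 and 1.56 in CD274-null, from 302, 245, 96 and 86 reads. Replicates were close in both groups, at 4.52 ± 0.260 (SD, n = 2) and 1.76 ± 0.283 (SD, n = 2), and the log2 fold change was -1.16 (limma unadjusted p = 0.0115, adjusted p = 0.284, standard error 0.33). Gbp3 (NCBI gene 55932, chr3:142560016-142573213), beside it and the most abundant of the group, had 10.9 and 7.26 in WT against 15.2 and 5.48 in CD274-null, so that the CD274-null libraries lay on either side of WT (log2 fold change 0.04, limma adjusted p = 0.978). Gbp2, Irgm1 and Igtp overlapped between the groups. Guanylate-binding genes are alike in sequence, and their reads may have been split among copies.

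Parp9 and Dtx3l, whose proteins form a complex that modifies histones and viral proteins, lie beside each other on chromosome 16, where their ends overlap, so reads in the overlap cannot be told apart without strand. Parp9 had an FPKM of 5.14 and 4.82 in WT and of 7.11 and 7.44 in CD274-null, while Dtx3l (NCBI gene 209200, chr16:35926515-35939027) had 7.27 and 6.63 in WT against 7.94 and 6.05 in CD274-null (log2 fold change -0.0023 with a standard error of 0.28, limma adjusted p = 0.998). Parp14, a related enzyme nearby, had 1.42 and 1.503 in WT against 2.56 and 3.41 in CD274-null. Replicates of Parp9 and Parp14 were close, and the unadjusted p was 0.112 and 0.0581 in limma.

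Among the remaining induced genes, Ifi35 (NCBI gene 70110, chr11:101448412-101458701), which binds the interferon-induced protein NMI, was the most abundant, with an FPKM of 22.6 and 18.8 in WT and of 23.9 and 30.6 in CD274-null (log2 fold change 0.38 with a standard error of 0.24, limma adjusted p = 0.518). Ifi27l2a had 2.80 and 7.21 in WT against 5.37 and 18.7 in CD274-null. Xaf1, a promoter of cell death, had 0.599 and 1.70 in WT against 2.83 and 2.24 in CD274-null. Cxcl10, the chemokine that draws T cells and that interferon gamma induces, was high in WT replicate 2 instead, with 1.26 and 11.9 in WT against 0.719 and 2.28 in CD274-null. Ifi44 was listed at 0 in all 4 libraries.

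**Figure D2:**
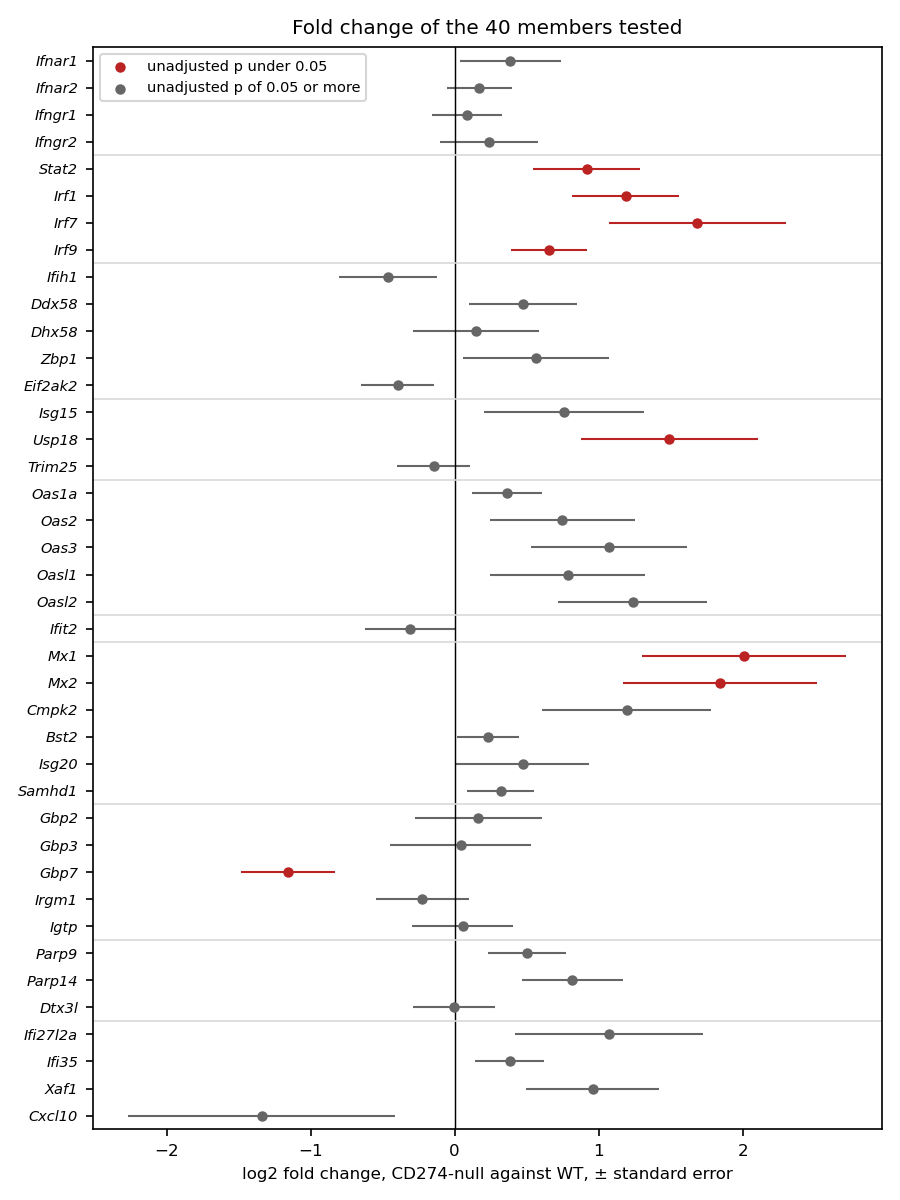
Log2 fold change of the 40 members tested, CD274-null against WT, on the log2(FPKM + 0.5) scale, with bars of 1 standard error from limma. The 8 red points have an unadjusted p under 0.05, and 7 of them, all but Gbp7, lie above 0.

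The contribution of single libraries was examined by leaving each out in turn, where the lone library of a group is assumed to vary like the other group. Without CD274-null replicate 2, 0 of the 40 members were higher at an unadjusted p under 0.05 in limma, against 3.12% of all genes tested. Without CD274-null replicate 1, 8 members were (20%, against 4.96% of all genes), and 4 of them, Irf1, Mx2, Oasl2 and Usp18, were candidates, 10% against 1.43% of all genes. Mx2, Oasl2 and Usp18 are among the 6 members that passed the filter only through the CD274-null libraries, so this share supports nothing beyond their own values. Without WT replicate 1, 3 members were higher at this p (7.5%, against 8.13% of all genes) and Cxcl10 was a candidate, lower in CD274-null, and without WT replicate 2, 6 members were higher (15%, against 10.3%). The fold changes of Mx1, Mx2, Irf7 and Usp18 ran from 1.04 to 2.98, from 0.93 to 2.76, from 0.81 to 2.56 and from 0.72 to 2.26 on the log2 scale, lowest in each case without CD274-null replicate 2. For Irf1 the range was 0.66 to 1.72, for Irf9 0.42 to 0.89, for Stat2 0.40 to 1.43 and for Gbp7 -1.29 to -1.03. None of these 8 members changed sign. Of the 7 higher members, Stat2 had its lowest value without WT replicate 1, and it was a candidate without WT replicate 2.

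**Figure D3:**
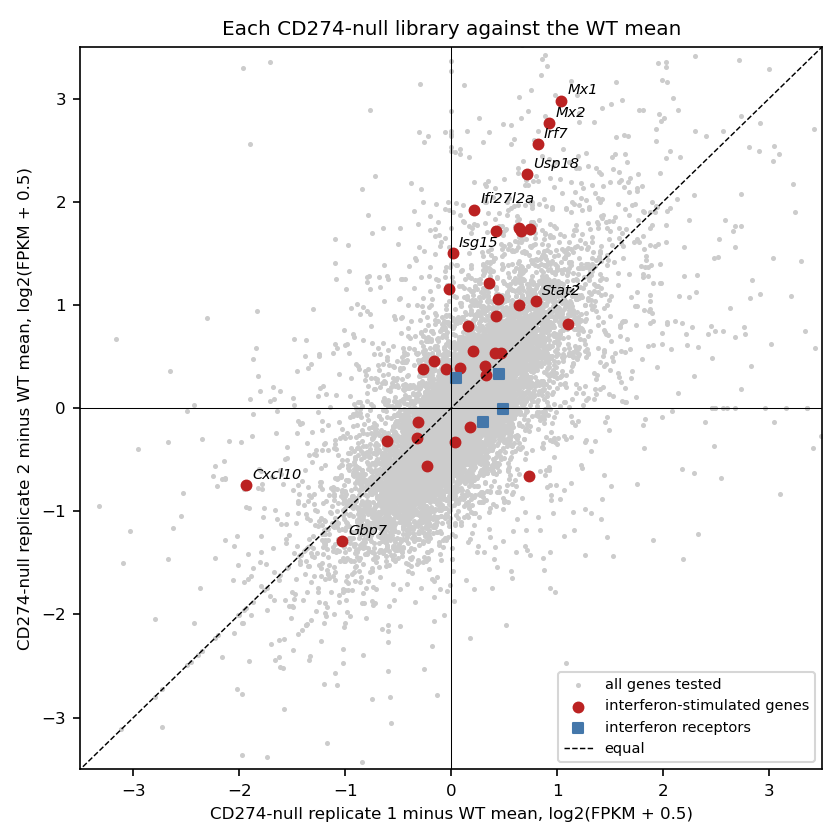
Difference of CD274-null replicate 1 (horizontal) and CD274-null replicate 2 (vertical) from the WT mean on the log2(FPKM + 0.5) scale, for all genes tested (grey, 64 beyond the axes are not drawn) and the members tested. Mx1, Mx2, Irf7, Usp18, Ifi27l2a and Isg15 lie above the dashed line of equality, and Gbp7 and Stat2 near it.

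**Figure D4:**
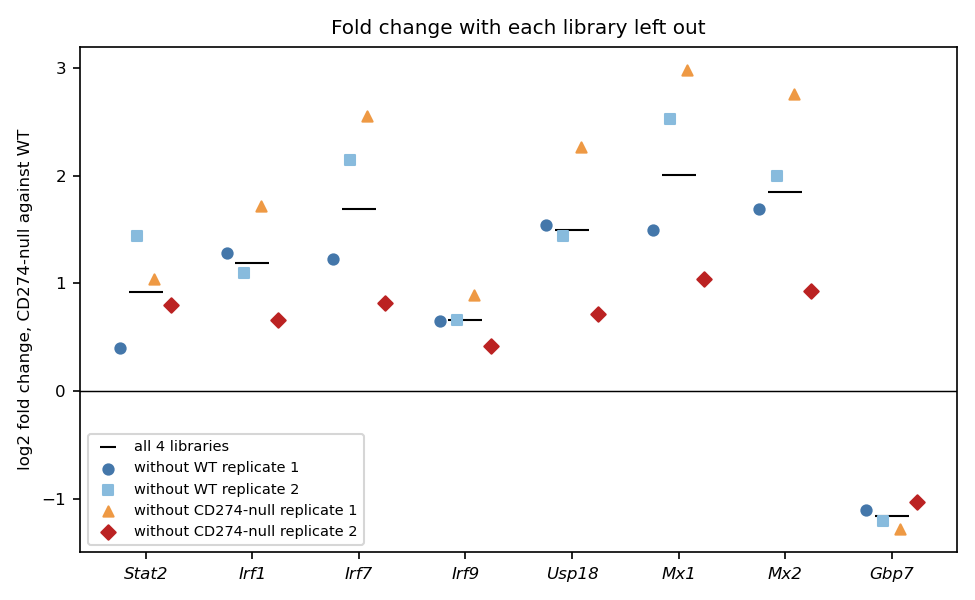
Log2 fold change of the 8 members with an unadjusted p under 0.05, with all 4 libraries (black bars) and with each library left out. Leaving out CD274-null replicate 2 (red) gave the lowest value for Irf1, Irf7, Irf9, Usp18, Mx1 and Mx2, and no marker of any gene crosses 0.

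Ligands were looked for among 21 interferon genes, of which 16 were listed at 0 in all 4 libraries, Ifnb1 and all listed interferon alpha genes included. The recovered reads of the list, the smallest whole numbers that give the FPKM, summed to 1 and 0 in WT and to 8 and 6 in CD274-null. Ifng was listed at 0 in both WT libraries and had an FPKM of 0.187 and 0.0832 in CD274-null. Transcripts of interferon were therefore at or near the limit of detection in every library.

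A further list of 64 interferon-induced genes outside the members was described in the same way. Of 49 tested, none was a candidate in limma, 7 were higher and 1 lower at an unadjusted p under 0.05, and the median log2 fold change was 0.28. These are 14.3% and 2.04% of those tested, against 8.04% and 5.70% of all genes, of which 3.63% were candidates. The largest differences among these 7 were in Ifi204 and Ifi209, DNA sensors of the p200 family, and in Slfn5, a Schlafen protein. Ifi204 had an FPKM of 0.339 and 0.770 in WT and of 1.53 and 3.02 in CD274-null (log2 fold change 1.37, limma adjusted p = 0.322). Ifi209 had 1.71 and 2.98 in WT against 7.02 and 4.91 in CD274-null, and Slfn5 0.361 and 0.262 in WT against 0.887 and 1.93 in CD274-null. The CD274-null replicates thus differed in opposite order in Ifi204 and Ifi209. CD274-null replicate 2 was the highest library in 17 of the 49 (34.7%, against 21.0% of all genes).

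Among 9 tested interferon regulatory factors and their binding partners, which include the members Irf1, Irf7 and Irf9, 8 were higher in both CD274-null libraries than in both WT libraries, and 5 were higher at an unadjusted p under 0.05. Of the 6 that are not members, these were 5 and 2, where 25.6% and 8.04% of all genes tested were. Irf2bp2, a corepressor that binds IRF2, was the candidate, with an FPKM of 45.8 and 50.1 in WT and of 76.4 and 93.2 in CD274-null (log2 fold change 0.81, limma unadjusted p = 0.00815, adjusted p = 0.274). Irf8, the factor of monocyte and dendritic cell development, had 8.10 and 30.4 in WT against 41.6 and 81.4 in CD274-null (log2 fold change 1.85, limma adjusted p = 0.313).

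Of 15 genes of receptor signalling and feedback, all tested, 1 was higher and 2 lower at an unadjusted p under 0.05, 6.67% and 13.3% against 8.04% and 5.70% of all genes. Tyk2, the kinase bound to IFNAR1, had an FPKM of 15.6 and 22.3 in WT and of 30.7 and 34.1 in CD274-null. Jak1, which serves both receptors, had 48.1 and 53.5 in WT against 30.3 and 34.9 in CD274-null. The log2 fold changes were 0.78 for Tyk2 and -0.63 for Jak1 (limma adjusted p = 0.312 and 0.313). Stat3, which carries signals of other cytokines such as IL-6, was a candidate, at 112 and 85.2 in WT against 56.0 and 45.4 in CD274-null (log2 fold change -0.95, limma unadjusted p = 0.00677, adjusted p = 0.272).

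Among 21 tested nucleic acid sensors and adaptors, Traf6, a ligase below Toll-like receptors, was the candidate (4.76%, against 3.63% of all genes), with 18.5 and 19.3 in WT against 10.9 and 7.57 in CD274-null. Of the 21, 10 were higher and 5 lower in both CD274-null libraries (47.6% and 23.8%, against 25.6% and 21.8%), and the median log2 fold change was 0.29. Of the 15 genes of MHC class I and the immunoproteasome, which interferons also induce, none had an unadjusted p under 0.05, and their median log2 fold change was 0.17. In 12 of these 15 (80%, against 21.0% of all genes), CD274-null replicate 2 was the highest library.

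**Figure D5:**
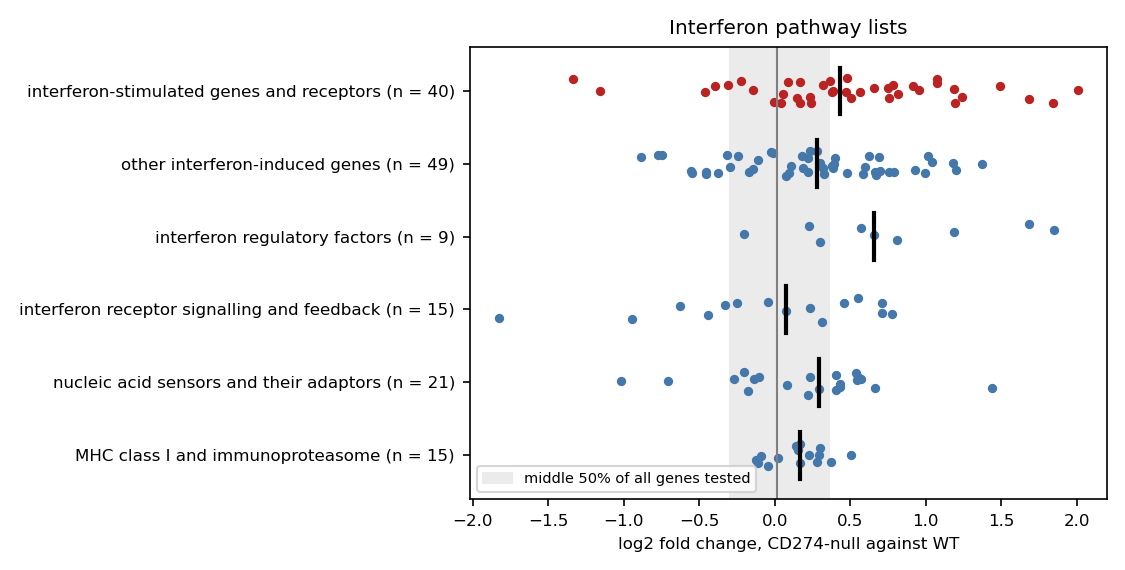
Log2 fold change of each gene tested (points) and the median (black bar) for the members and 5 further lists, 3 genes of the members being also in the list of regulatory factors. The grey band holds the middle 50% of all genes tested, from -0.30 to 0.36, and the members run from -1.34 in Cxcl10 to 2.01 in Mx1, on both sides of it.

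Markers of other cells were set beside these values. The 13 markers of plasmacytoid dendritic cells, the main producers of type I interferon, include the members Irf7 and Bst2. The 11 that are not members summed to an FPKM of 14.3 and 31.7 in WT and of 32.0 and 44.5 in CD274-null. Much of this was Tcf4, a factor of that lineage, at 1.74 and 2.72 in WT against 7.40 and 23.6 in CD274-null, and without it the sums were 12.6 and 28.9 in WT against 24.6 and 20.9 in CD274-null, so that CD274-null replicate 2 was no longer the highest. Of the 5 of these 11 that were tested, 2 were higher in both CD274-null libraries (25.6% of all genes tested were), 2 were higher at an unadjusted p under 0.05 (40%, against 8.04%), with Tcf4 a candidate, 2 had a fold change below 0, and the median log2 fold change was 0.27. Siglech, which defines these cells in mice, was listed at 0 in WT and had an FPKM of 0.142 and 0.126 in CD274-null. The 12 B cell markers summed to 13.2 and 37.7 in WT against 38.2 and 40.3 in CD274-null. The 11 plasma cell markers, immunoglobulin genes included, summed to 201 and 90.2 in WT against 525 and 573 in CD274-null. The median log2 difference of those tested from the WT mean was 2.92 and 3.66 in CD274-null replicates 1 and 2. Of 6 tested, 4 were candidates (66.7%, against 3.63% of all genes tested) and 2 had an adjusted p under 0.05 in limma, which 10 of all genes tested had. The other plasma cell markers were too low to test. The median log2 fold change of those tested was 3.29, above the value of every member tested. T and NK cell markers summed to 36.4 and 16.7 in WT against 73.6 and 89.3 in CD274-null, and those of monocytes and macrophages to 958 and 1595 in WT against 1577 and 1849 in CD274-null. Of 3 T and NK cell markers tested, 1 was higher and 1 lower at an unadjusted p under 0.05 in limma (33.3% each). Of 12 monocyte and macrophage markers, 0 were higher and 1 lower (8.33%), against 8.04% and 5.70% of all genes tested. Neutrophil markers summed to 50129 and 14142 in WT against 26424 and 38119 in CD274-null, highest in WT replicate 1. Of the 13 neutrophil markers, all tested, 11 had a fold change above 0, and the median log2 fold change over all 13 was 0.25. Erythroid markers summed to 3.06 and 55.8 in WT against 5.41 and 0.701 in CD274-null. The part of these other cells in the levels of the interferon-stimulated genes was not tested.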

How the data were processed

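LICs of 4 libraries (2 WT and 2 CD274-null) were measured by RNA-sequencing. For each gene and library the authors deposited an FPKM value on a linear scale. According to the study's methods and the submitters' processing notes, sequencing of TruSeq v2 libraries was done on a HiSeq2500, and reads were aligned to GRCm38 with TopHat2 2.0.12 after CASAVA 1.8.2; the program, gene lengths and strand setting behind FPKM are not given in the sources used here. Libraries were assigned by their labels. Genes were named through RefSeq of GRCm38.p6 (25275 of 27179 with a symbol).

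FPKM values of a gene are whole multiples of 1 read divided by gene length and library total. Whole reads, within 0.005 of a read, were recovered for 17082 of 17083 genes above 0 in at least 2 libraries, as the smallest numbers that fit (lower bounds where all reads of a gene share a factor), with 8692378 to 11380818 reads on genes per library. Depth limits low members, and intervals and floors (3 reads) rest on the recovered reads and cover counting error only.

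In R 4.3.3, limma 3.58.1 (lmFit and eBayes, trend on, two-sided, Benjamini-Hochberg adjustment over all genes tested) was run on log2(FPKM + 0.5) with no covariate for genes whose FPKM averaged 0.5 or more, and was tested on simulated data. Named in full were members with an unadjusted p under 0.05, receptors, transcription factors and the most abundant member of each other role, and from further lists the candidates and up to 3 genes with an unadjusted p under 0.05; other members given by value, and marker genes, were added afterwards. Members and lists were chosen with earlier results of these data known. Alternatives were pseudocounts of 1 and 0.1, no filter, a minimum mean FPKM of 5, quantile normalisation, equal medians, eBayes without trend, no moderation, the replicate number as a block, voom on recovered reads, correction for GC content (loess, span 0.3), the latter with the block, and leaving out each library. Motifs were searched with Python 3.11.15.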

Additional observations from a re-analysis of the deposited data

How the results depend on the processing

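The number of members past the candidate threshold, 0 with limma and all libraries, was 1 with quantile normalisation, equal medians, eBayes without trend or voom (Gbp7 each time), and 0 to 4 with one library left out. It stayed at 0 with the other pseudocounts, both filters, no moderation and GC correction, which did not cover Mx1. All genes past the threshold numbered 480 (316 higher), 170 without moderation, 463 (253 higher) with quantile normalisation, 447 (247 higher) with equal medians, and 147 to 634 with one library left out, lowest without CD274-null replicate 2. At an unadjusted p under 0.05, 7 members were higher with limma and all libraries, 9 with voom, 8 with a pseudocount of 0.1, 2 with quantile normalisation, 3 with equal medians, 2 without moderation (neither of them among the 7) and 4 with a minimum mean FPKM of 5, where 23 members were tested. The median log2 fold change of the members tested stayed between 0.32 and 0.58 with one library left out and between 0.35 and 0.47 otherwise.

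Same-numbered libraries deviated from their group means with a correlation of -0.02 over the genes tested. This gave no sign that replicate numbers pair the libraries, but cannot exclude it. With the replicate block, 3 members were candidates, Irf1, Irf7 and Mx1, and 526 genes in all. GC correction with the replicate block gave 2, Cmpk2 and Irf7, and 297 genes in all. Both GC fits covered 39 members and 11435 genes, and Mx1, which had no GC value, was not among them.

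Some members changed sign, among them Ifnar1, at 0.39 with all libraries. Dtx3l had a log2 fold change of 0.10 with GC correction, with or without the block. With one library left out it ran from -0.19 to 0.18, Ifnar1 from -0.0713 to 0.85, Ifngr1 from -0.13 to 0.30, Ifngr2 from -0.16 to 0.64, Gbp3 from -0.66 to 0.74 and Trim25 from -0.32 to 0.0310. The cause was not tested. Members with under 10 reads in a library, such as Usp18, Mx2, Ifit3 and Isg15, are limited by depth.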

Other observations

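Some interferon-induced genes were highest in WT libraries. The genes given here were picked once their values were known. Ifitm6, a membrane protein of the interferon-induced Ifitm family found in myeloid cells, had an FPKM of 684 in WT replicate 1 against 42.3 in WT replicate 2 and 129 and 65.2 in CD274-null. Ifi47, an immunity-related GTPase, had 22.7 in WT replicate 1 against 6.99 in WT replicate 2 and 6.89 and 7.86 in CD274-null. The summed FPKM of the neutrophil markers was also highest in WT replicate 1, although 11 of the 13 had a fold change above 0. The part of neutrophils in these values was not tested. Ly6e, a surface protein that interferons induce, was highest in CD274-null replicate 2, with 379 there against 121 and 178 in WT and 233 in CD274-null replicate 1.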
